A study of Homo sapiens with 20 samples.

Results

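The genes described here are 10 enzymes of serine synthesis and of the folate cycle that carries one-carbon units: PHGDH, PSAT1, PSPH, SHMT1, SHMT2, MTHFD1, MTHFD1L, MTHFD2, MTHFD2L and ALDH1L2. They were chosen by name out of the 57500 genes listed for each library, with earlier results of these data known. All 10 were found, and all 10 passed the filter on low counts in every comparison. RNA was sequenced from NTERT cells, an immortalized line of human keratinocytes, in 4 groups of 5 cultures. WT unwounded and WT HDW cells were wild type and, by the study's account of its lines, had received a control guide RNA, and GCN2KO unwounded and GCN2KO HDW cells were made with CRISPR-Cas9 against EIF2AK4, the gene of the eIF2 kinase GCN2, as a pool of edited cells rather than a clone. HDW, high density wounding, scrapes a confluent layer along crossing lines with rows of pipet tips, which by the study's account raises the number of cells near a wound. RNA was taken 6 h later. In the study's description of the assay, the monolayer had been treated with calcium and serum to start differentiation before wounding, and unwounded and HDW cultures share that treatment. Sources used here do not say whether the 5 replicates were independent cell preparations, so p-values measure the spread between these cultures only.

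Serine is made in the cytosol from the glycolytic intermediate 3-phosphoglycerate: PHGDH oxidizes it, PSAT1 transfers an amino group to the product and PSPH removes the phosphate. SHMT1 in the cytosol and SHMT2 in mitochondria then split serine into glycine and a one-carbon unit held by tetrahydrofolate. In mitochondria MTHFD2 or MTHFD2L oxidizes that unit and MTHFD1L releases it as formate, in the cytosol MTHFD1 takes formate up again for purine and thymidylate synthesis, and ALDH1L2 oxidizes mitochondrial formyl-tetrahydrofolate to carbon dioxide with NADPH as a product. Several of these genes, among them PHGDH, PSAT1, SHMT2 and MTHFD2, are known transcriptional targets of ATF4, the factor whose translation rises when an eIF2 kinase such as GCN2 is active.

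In WT cells 9 of the 10 mRNAs rose after HDW, as did 26.1% of all genes tested, PSAT1 by 4.4-fold and ALDH1L2, MTHFD2 and MTHFD1L by 2.49, 2.4 and 2.17-fold. In GCN2KO cells none of these 4 rose after HDW, and MTHFD2 fell 1.28-fold. Unwounded GCN2KO cells already had more of 8 of the mRNAs than unwounded WT cells, MTHFD2 3.34-fold and PSAT1 3.23-fold, with 33.4% of all genes higher there. In GCN2KO HDW cells 7 were lower than in WT HDW cells, as were 35.8% of all genes. MTHFD1 and MTHFD2L kept to other patterns: MTHFD1 was lower and MTHFD2L higher in GCN2KO cells in both conditions.

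Promoter sequences of RefSeq (GRCh38.p14), 250 bases before to 50 after an annotated start, were at hand for 7 of the 10 genes in 11 entries. The 3 shown belong to members whose HDW response differed between genotypes: MTHFD1L at chr6:150866236-150866535, PSAT1 at chr9:78296875-78297174 and MTHFD2 at chr2:74198365-74198664, all on the plus strand and written 5′ to 3′. In MTHFD1L the capitals mark a match to TGATGNAA, the core of the element that ATF4 binds with a C/EBP protein. In PSAT1 and MTHFD2 the capitals mark the bases from the start on.
MTHFD1L: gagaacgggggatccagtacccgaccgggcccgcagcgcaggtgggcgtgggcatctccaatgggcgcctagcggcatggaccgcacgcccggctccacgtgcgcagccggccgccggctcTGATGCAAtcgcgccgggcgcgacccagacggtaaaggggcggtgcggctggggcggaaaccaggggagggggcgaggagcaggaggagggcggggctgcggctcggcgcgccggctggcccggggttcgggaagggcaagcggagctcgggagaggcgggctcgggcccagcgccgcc
PSAT1: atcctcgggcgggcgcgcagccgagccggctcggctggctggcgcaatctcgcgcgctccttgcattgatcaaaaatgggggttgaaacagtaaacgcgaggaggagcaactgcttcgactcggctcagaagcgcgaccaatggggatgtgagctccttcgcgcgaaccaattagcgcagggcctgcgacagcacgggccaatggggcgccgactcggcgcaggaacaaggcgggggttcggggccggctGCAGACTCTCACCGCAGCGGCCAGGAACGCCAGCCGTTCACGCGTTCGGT
MTHFD2: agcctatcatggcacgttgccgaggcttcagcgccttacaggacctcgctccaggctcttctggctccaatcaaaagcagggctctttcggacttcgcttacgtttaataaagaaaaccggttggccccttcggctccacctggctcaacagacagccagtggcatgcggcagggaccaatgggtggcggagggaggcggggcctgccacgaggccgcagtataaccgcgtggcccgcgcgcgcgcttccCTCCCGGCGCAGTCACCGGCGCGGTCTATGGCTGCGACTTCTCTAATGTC
TGATGNAA and its reverse complement TTNCATCA were searched on both strands. Of 35116 promoter entries, 1270 (3.62%) hold it. Among the 7 members with an entry only MTHFD1L does, and the match at chromosome 6, 150866357 to 150866364, falls in 3 of its 4 entries because they overlap. PSPH, SHMT2 and ALDH1L2 had no entry and were not searched. The entries of PHGDH, PSAT1, SHMT1, MTHFD1, MTHFD2 and MTHFD2L do not hold these letters in this window.

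Libraries held 14083504 to 34611570 counts on genes. Values below are normalized read counts, which are counts divided by a TMM scaling factor that sets the 20 libraries to a common size. EIF2AK4 was at 4152 to 4555 normalized read counts in WT unwounded and 3980.2 to 4303 in WT HDW libraries, and at 806 to 962 in GCN2KO unwounded and 809.8 to 951 in GCN2KO HDW libraries, so all 10 GCN2KO libraries lay below all 10 WT libraries. The 8 keratinocyte markers summed to 711924 to 742761 in WT unwounded and 736822 to 795539 in WT HDW libraries. GCN2KO unwounded libraries had 595667 to 715695 and GCN2KO HDW libraries 762730 to 788443. Of these 8, 3 were higher and 4 lower in unwounded GCN2KO than in WT cells, and 2 were higher and 5 lower after HDW. Unwounded, LAMB3 was at 1.09 and KRT15 at -1.88 on the log2 scale (edgeR adjusted p = 7.42e-07 and 2.45e-09). The summed 8 markers of keratinocyte differentiation stood at 7603 to 9591 in WT unwounded, 7293 to 9916 in WT HDW, 13317 to 19306 in GCN2KO unwounded and 16778 to 22647 in GCN2KO HDW libraries, with LORICRIN at 0 in WT unwounded cells. Genes of that list moved in opposite directions: of the 7 tested, IVL was higher in unwounded GCN2KO cells, at 1.83 on the log2 scale (edgeR adjusted p = 4.94e-09), while KRT1, FLG, SPINK5 and CALML5 were lower, at -1.06, -0.93, -0.77 and -1.13 (edgeR adjusted p = 0.00179, 0.000184, 3.82e-05 and 8.59e-05). After HDW 2 of the 7 were higher and 4 lower. The summed 10 proliferation markers stood at 5199.7 to 5915, 7762 to 12044, 4229 to 5157 and 4028 to 4221 in the same order of groups. The 5 melanocyte markers summed to 130.4 to 171, 174 to 209, 346 to 512 and 381 to 642, with TYR at 0 in every library and MITF higher in GCN2KO cells, at 1.98 unwounded and 1.94 after HDW (edgeR adjusted p = 3.94e-08 and 1.18e-07). The 4 leukocyte markers summed to 1613.5 to 1870.0, 899 to 1052, 702 to 1282 and 479 to 1054, with PTPRC at 0 in every library of each group but GCN2KO unwounded. Of the 2 tested, CD14 was lower in GCN2KO than in WT cells, at -1.10 unwounded and -0.67 after HDW (edgeR adjusted p = 6.15e-06 and 0.00425). CD68 was higher, at 1.00 and 0.53 (edgeR adjusted p = 8.9e-05 and 0.000415). The 6 fibroblast markers summed to 904 to 1041, 758 to 853, 669 to 888 and 709 to 920.1, and the 3 endothelial markers to at most 18.2. The keratinocyte, differentiation, proliferation, melanocyte, leukocyte and fibroblast sums move with groups that the results below compare, and their part in those results was not tested.

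Per transcript length, in TPM (transcripts scaled to a fixed total per library) from the Ensembl canonical transcript of each gene, SHMT2 was the highest of the 10 in unwounded WT cells at 228 ± 6.84 TPM (SD, n = 5). PHGDH followed at 153 ± 24.3 TPM and PSAT1 at 88.8 ± 26.6 TPM (SD, n = 5). MTHFD2 (52.5 ± 11.6 TPM) overlapped PSAT1 above it and MTHFD1 below it in that order. ALDH1L2 at 8.06 ± 2.34 and MTHFD2L at 7.67 ± 0.263 TPM were lowest and overlapped each other. After HDW, PSAT1 was the highest in WT cells at 390.2 ± 42.2 TPM, and every one of its WT HDW libraries exceeded those of SHMT2 at 323 ± 17.2 TPM (SD, n = 5). In GCN2KO cells SHMT2 and PSAT1 were the highest pair in both conditions and overlapped, at 324 ± 23.6 and 276.5 ± 18.6 TPM unwounded. With the bases of all annotated exons as the length, PSAT1 ranked 2 in WT unwounded cells, above PHGDH, and 1 in the other 3 groups, so the order of levels between genes depends on the length used. Small TPM differences between groups can also shift with the length. PSAT1 in GCN2KO cells went from 276.5 unwounded to 279.3 TPM after HDW with canonical transcripts, and from 521.4 to 509.7 TPM with all exons. The tests between groups below use counts, without a length.

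**Figure D1:**
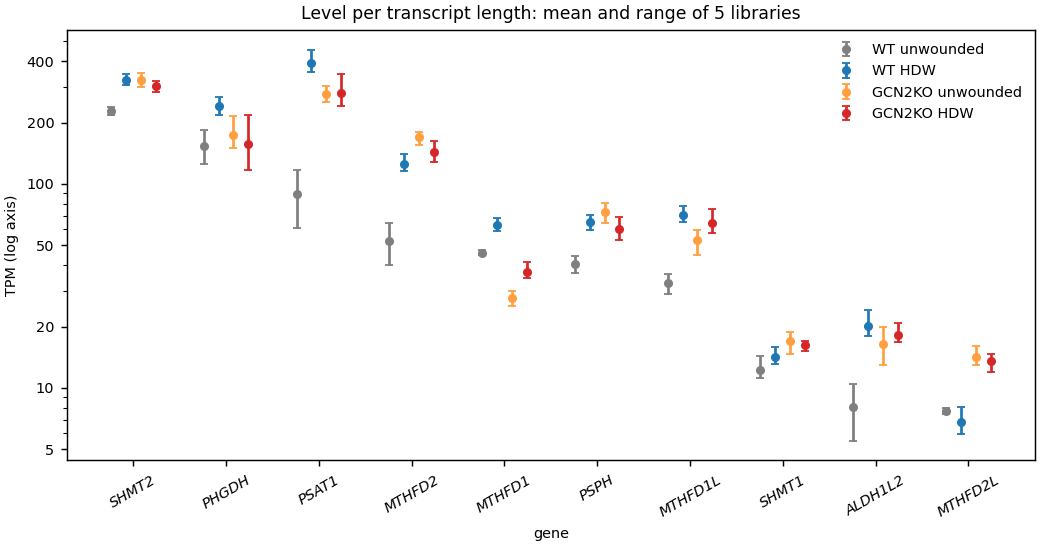
TPM per gene on a log axis, with points for the mean and bars for the lowest and highest of 5 libraries in each of the 4 groups. PSAT1 moves from 88.8 TPM in WT unwounded to 390.2 TPM in WT HDW cells, while MTHFD2L stays the lowest gene in each group.

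Differences between groups were tested with edgeR's quasi-likelihood test across all genes that passed its filter on low counts. A gene is said to have risen or fallen, or to be higher or lower, where its Benjamini-Hochberg adjusted p was at most 0.05, and it is called a DE gene where its log2 fold change was also at least 1 in size, the study's own thresholds. The interaction is the log2 change after HDW in GCN2KO cells minus that in WT cells.

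PSAT1, the aminotransferase of serine synthesis, had 1777, 3196, 1816, 3420.0 and 2866 normalized read counts in WT unwounded replicates 1 to 5. The WT HDW libraries had 10426, 13126, 12163, 10611.5 and 11528, the GCN2KO unwounded libraries 9128, 7764, 8921, 7249.5 and 9046.5 and the GCN2KO HDW libraries 6749, 7767, 7363, 7405 and 9437. All WT HDW libraries were above all others, all WT unwounded libraries were below all others, and the 2 GCN2KO groups overlapped. In WT cells HDW moved PSAT1 by 2.14 (edgeR adjusted p = 2.58e-08, SE 0.154) on the log2 scale, from 2615 ± 773 to 11571 ± 1118 normalized read counts (SD, n = 5). In GCN2KO cells the change was -0.11 (edgeR adjusted p = 0.412, SE 0.094), and the interaction was -2.26 (edgeR adjusted p = 2.59e-08, SE 0.197). GCN2KO against WT gave 1.69 (edgeR adjusted p = 1.19e-07, SE 0.159) in unwounded cells and -0.58 (edgeR adjusted p = 2.72e-05, SE 0.085) after HDW.

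PHGDH, which commits 3-phosphoglycerate to serine, had 3074, 4099, 3347.5, 4542 and 3969 normalized read counts in the WT unwounded libraries and 5605, 6516, 6296, 5479 and 6211 in the WT HDW libraries. It had 5498, 4339.5, 4235, 3969.8 and 4208 in the GCN2KO unwounded and 2748, 3629.8, 3555, 3390.5 and 5069 in the GCN2KO HDW libraries. Every WT HDW library exceeded every WT unwounded and every GCN2KO HDW library, and replicate 5 of GCN2KO HDW was the highest of its group. PHGDH rose after HDW in WT cells, by 0.66 (edgeR adjusted p = 1.12e-05, SE 0.085) on the log2 scale, and was lower in GCN2KO than in WT cells after HDW, at -0.71 (edgeR adjusted p = 0.000106, SE 0.120). Unlike the other 2 enzymes of serine synthesis, it did not pass the test between unwounded GCN2KO and WT cells, at 0.23 (edgeR adjusted p = 0.0688, SE 0.106). It passed there without WT unwounded replicate 4, without GCN2KO unwounded replicate 4 and with no filter on low counts (edgeR adjusted p = 0.024, 0.0442 and 0.0247). After HDW in GCN2KO cells its log2 fold change was -0.26 (edgeR adjusted p = 0.167, SE 0.135) with all libraries and -0.41 (edgeR adjusted p = 0.0147) without GCN2KO HDW replicate 5. The interaction of PHGDH was -0.93 (edgeR adjusted p = 0.000342, SE 0.172).

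PSPH, the phosphatase of the last step, ranged over 978 to 1163 normalized read counts in WT unwounded, 1570.5 to 1835 in WT HDW, 1628 to 2393 in GCN2KO unwounded and 1324 to 1684 in GCN2KO HDW libraries. Its WT unwounded libraries lay below all others. It rose after HDW in WT cells, by 0.69 (edgeR adjusted p = 8.08e-08, SE 0.055), and fell in GCN2KO cells, at -0.42 (edgeR adjusted p = 0.0126, SE 0.103). The interaction was -1.12 (edgeR adjusted p = 6.97e-07, SE 0.125), and PSPH was higher in GCN2KO cells before and lower after HDW, at 0.91 and -0.21 (edgeR adjusted p = 6.07e-07 and 0.00836).

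**Figure D2:**
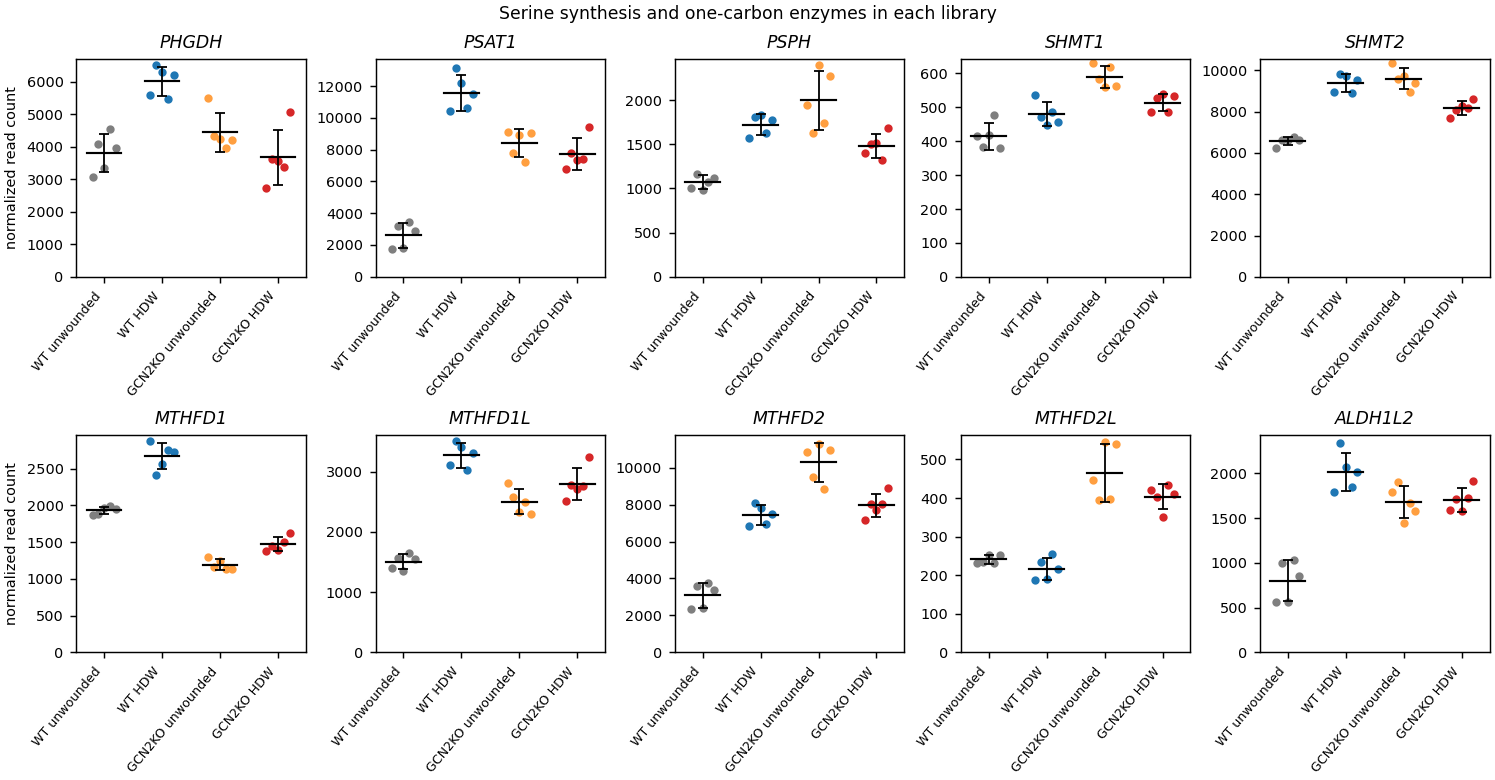
Normalized read counts of the 10 genes on linear axes from 0, with 1 point per library in replicate order, a bar at the mean and error bars of 1 SD (n = 5) in each of 4 groups. For PSAT1, MTHFD2, MTHFD1L and ALDH1L2 the WT unwounded libraries are the lowest, and MTHFD1 and MTHFD2L separate by genotype.

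MTHFD2, the mitochondrial dehydrogenase and cyclohydrolase, had 2353, 3569, 2389.9, 3759 and 3354 normalized read counts in WT unwounded and 6861, 8065.5, 7836, 6951 and 7486 in WT HDW libraries. GCN2KO unwounded libraries had 10848, 9509.8, 11269.7, 8859 and 10966 and GCN2KO HDW libraries 7175, 8018, 7694, 8039.9 and 8876. All WT unwounded libraries were lowest and the unwounded GCN2KO libraries reached highest, and the 2 HDW groups overlapped. MTHFD2 was the member with the largest difference between genotypes in unwounded cells, at 1.74 (edgeR adjusted p = 5.51e-09, SE 0.126), and it did not pass after HDW, at 0.10 (edgeR adjusted p = 0.161, SE 0.060). It rose after HDW in WT cells, at 1.26 (edgeR adjusted p = 2.13e-07, SE 0.111), and fell in GCN2KO cells, at -0.36 (edgeR adjusted p = 0.008, SE 0.080), with an interaction of -1.64 (edgeR adjusted p = 4.43e-08, SE 0.150). Exons of other genes on the opposite strand, chiefly SLC4A5, cover 14.2% of the exonic bases of MTHFD2, and whether the authors' counting used strand is not given in the sources used here.

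ALDH1L2, the mitochondrial formyl-tetrahydrofolate dehydrogenase, had 560.4, 994, 558, 1029 and 855 normalized read counts in WT unwounded and 1791, 2342, 2072, 1849.5 and 2019 in WT HDW libraries. It had 1786, 1902, 1445, 1669 and 1584 in GCN2KO unwounded and 1585, 1711, 1580.1, 1727 and 1914 in GCN2KO HDW libraries. Its WT unwounded libraries were below all others, and the other 3 groups overlapped. ALDH1L2 rose by 1.32 (edgeR adjusted p = 1.52e-06, SE 0.140) on the log2 scale after HDW in WT cells, with 0.03 (edgeR adjusted p = 0.801, SE 0.084) in GCN2KO cells and an interaction of -1.30 (edgeR adjusted p = 1.35e-05, SE 0.180). It was higher in unwounded GCN2KO cells, at 1.07 (edgeR adjusted p = 1.1e-05, SE 0.150), and lower after HDW, at -0.24 (edgeR adjusted p = 0.00805, SE 0.073). That last call was lost with all 20 libraries in one fit (edgeR adjusted p = 0.0878).

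MTHFD1L, the mitochondrial enzyme that releases formate, had 1401, 1565, 1350.1, 1657 and 1553 normalized read counts in WT unwounded and 3108, 3507, 3415, 3025 and 3303 in WT HDW libraries. It had 2806, 2578, 2326, 2503 and 2289.7 in GCN2KO unwounded and 2511, 2777, 2709.9, 2757 and 3241 in GCN2KO HDW libraries. The order of the group means was the same as for PSAT1 except that GCN2KO HDW stood above GCN2KO unwounded, and those 2 groups overlapped. HDW raised MTHFD1L in WT cells by 1.11 (edgeR adjusted p = 6.96e-10, SE 0.056), and in GCN2KO cells the change was 0.17 (edgeR adjusted p = 0.127, SE 0.080). The interaction was -0.95 (edgeR adjusted p = 2.95e-07, SE 0.101). GCN2KO against WT was 0.73 unwounded and -0.23 after HDW (edgeR adjusted p = 3.4e-07 and 0.00542).

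SHMT2 is the mitochondrial serine hydroxymethyltransferase. Its libraries spanned 6218 to 6777 normalized read counts in WT unwounded, 8891 to 9813 in WT HDW, 8972 to 10339.8 in GCN2KO unwounded and 7674 to 8604 in GCN2KO HDW. WT unwounded libraries were below all others, and GCN2KO HDW libraries lay between those and both remaining groups. SHMT2 rose after HDW in WT cells, by 0.51 (edgeR adjusted p = 2.81e-08, SE 0.037), and fell in GCN2KO cells, with -0.22 (edgeR adjusted p = 0.0193, SE 0.061). The fall in GCN2KO cells was lost when GCN2KO HDW replicate 1, 2 or 3 was left out (edgeR adjusted p = 0.0554, 0.0537 and 0.0502). The interaction was -0.75 (edgeR adjusted p = 6.21e-08, SE 0.070).

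SHMT1, the cytosolic counterpart, was at 379 to 477 normalized read counts in WT unwounded, 447 to 536 in WT HDW, 559 to 629.8 in GCN2KO unwounded and 486.5 to 538 in GCN2KO HDW libraries. All GCN2KO unwounded libraries lay above every other library. It was higher in unwounded GCN2KO than in WT cells, at 0.51 (edgeR adjusted p = 2.92e-05, SE 0.079), and the difference after HDW was 0.10 (edgeR adjusted p = 0.133, SE 0.059). Its rise after HDW in WT cells, 0.20 (edgeR adjusted p = 0.025, SE 0.070), was lost without WT HDW replicate 1, without WT unwounded replicate 2 or 5, and with library size alone as the scaling (edgeR adjusted p = 0.0689, 0.0607, 0.0823 and 0.0679). In GCN2KO cells the change was -0.19 (edgeR adjusted p = 0.0627, SE 0.069), and the interaction was -0.40 (edgeR adjusted p = 0.00361, SE 0.097).

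MTHFD1, the cytosolic enzyme with 3 activities that takes up formate, had 1868, 1888, 1961, 1986 and 1958 normalized read counts in WT unwounded and 2876, 2421, 2565, 2762 and 2730.4 in WT HDW libraries. It had 1297, 1166.5, 1238, 1139.7 and 1137 in GCN2KO unwounded and 1380.3, 1452, 1399.8, 1499.6 and 1624 in GCN2KO HDW libraries. No group overlapped another. MTHFD1 was the one member lower in GCN2KO cells in both conditions, at -0.69 (edgeR adjusted p = 4.78e-08, SE 0.060) unwounded and -0.86 (edgeR adjusted p = 1.09e-08, SE 0.056) after HDW. It rose after HDW in both genotypes, at 0.46 (edgeR adjusted p = 3.8e-07, SE 0.043) for WT and 0.31 (edgeR adjusted p = 0.00671, SE 0.067) for GCN2KO cells, and the interaction was -0.17 (edgeR adjusted p = 0.132, SE 0.079). Of the 10 proliferation markers, 8 were lower in GCN2KO cells unwounded and 10 after HDW, and 5 rose after HDW in WT cells, such as MCM6 by 2.18 (edgeR adjusted p = 1.99e-08). In GCN2KO cells MCM6 changed by 0.25 after HDW (edgeR adjusted p = 0.141). The part of proliferation in the MTHFD1 result was not tested. Exons of 3 genes on the opposite strand cover 11.1% of the exonic bases of MTHFD1.

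MTHFD2L, the other mitochondrial dehydrogenase of this step, had 232.5, 235.5, 254, 231 and 253.5 normalized read counts in WT unwounded and 189, 233, 189.9, 255 and 216 in WT HDW libraries. It had 446, 394, 546, 397 and 540.3 in GCN2KO unwounded and 420.4, 401.5, 351, 435 and 409.9 in GCN2KO HDW libraries. All 10 GCN2KO libraries exceeded all 10 WT libraries. GCN2KO against WT gave 0.95 (edgeR adjusted p = 6.45e-07, SE 0.104) unwounded and 0.90 (edgeR adjusted p = 7.06e-07, SE 0.090) after HDW, while HDW gave -0.17 (edgeR adjusted p = 0.133, SE 0.088) in WT and -0.20 (edgeR adjusted p = 0.173, SE 0.104) in GCN2KO cells. Without WT HDW replicate 4 the fall in WT cells passed, at -0.23 (edgeR adjusted p = 0.0333). The interaction was -0.05 (edgeR adjusted p = 0.831, SE 0.142), which was above 0 under 4 alternatives.

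Counted over the 10 genes, 8 were higher in unwounded GCN2KO than in WT cells, against 33.4% of the 15348 genes tested, and 1 was lower, against 33.1%. PSAT1, MTHFD2 and ALDH1L2 were DE genes there, against 8.21% of all genes in that direction. After HDW 1 member was higher in GCN2KO cells, against 35.9% of 15855 genes, and 7 were lower, against 35.8%, with no member past the fold threshold and MTHFD2L the largest at 0.90. Between these comparisons, which share no library, 5 members were higher unwounded and lower after HDW (PSAT1, PSPH, SHMT2, MTHFD1L and ALDH1L2), a pattern that 1.07% of the 15238 genes tested in both comparisons showed. The median log2 fold change of the 10 members was 0.82 unwounded and -0.22 after HDW, beside 0.0042 and 0.0020 over all genes.

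HDW raised 9 of the 10 members in WT cells, against 26.1% of 15348 genes, and PSAT1, MTHFD1L, MTHFD2 and ALDH1L2 were DE genes, against 2.62%. None fell by edgeR, none at an unadjusted p under 0.05 and none by DESeq2. In GCN2KO cells 1 member, MTHFD1, rose, against 11.9% of 15791 genes, and 3 fell, PSPH, SHMT2 and MTHFD2, against 10.8%. No member changed there by more than 0.42 on the log2 scale. SHMT1 also fell in GCN2KO cells by DESeq2, at -0.20 (DESeq2 adjusted p = 0.0371). The interaction was below 0 for all 10 members with edgeR's normalization, 8 of them passed, against 12.5% of 16536 genes lower, and 4 of these were at least 1 in size, PSAT1, PSPH, MTHFD2 and ALDH1L2, against 2.15%. None was higher by edgeR, at an unadjusted p under 0.05 or by DESeq2. The median interaction of the members was -0.94, beside -0.0090 over all genes. The comparison of genotypes in unwounded cells and that of HDW in WT cells share the 5 WT unwounded libraries, so low values there enter both.

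**Figure D3:**
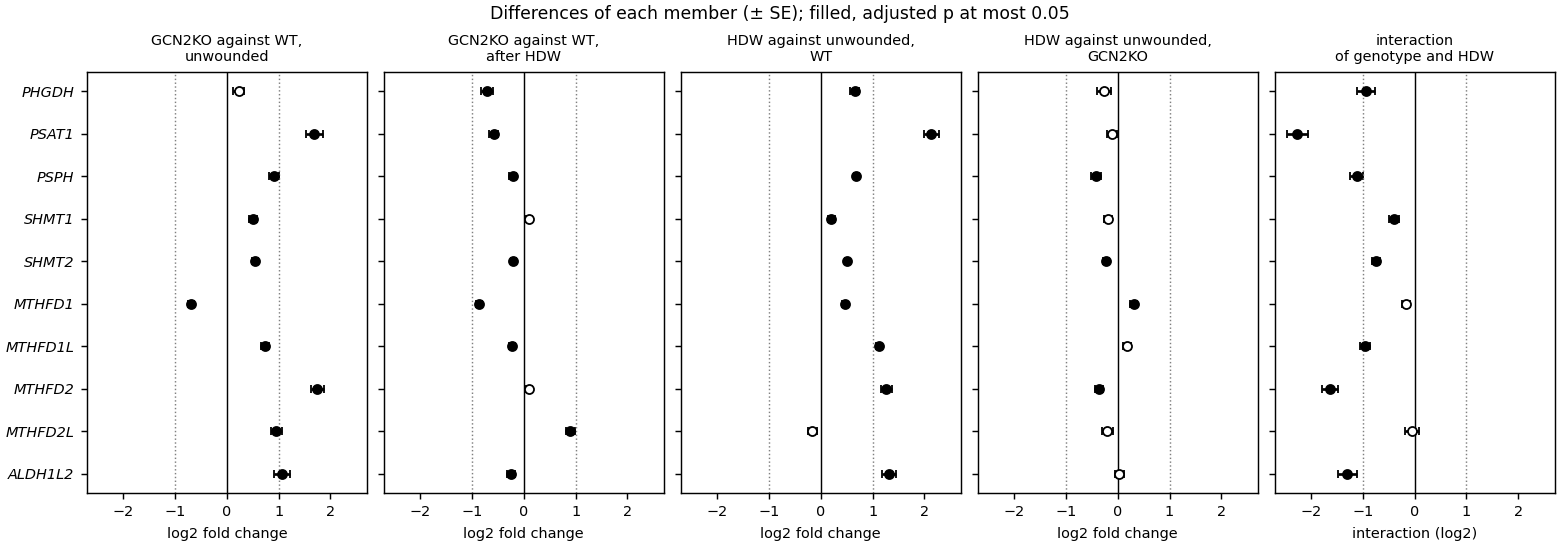
Log2 fold changes of the 10 genes in 4 comparisons, and their interaction, with error bars of 1 SE; filled points have an adjusted p of at most 0.05 and dotted lines mark a log2 of 1 in size. In the unwounded comparison 8 points are filled to the right of 0, and in the interaction 8 are filled to the left.

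Libraries of a group did not deviate alike for every gene, but some stood at one end for most members. WT unwounded replicate 1 was among the 2 lowest of its group for 9 of the 10 members and replicate 3 for 6, and these libraries held 14083504 and 23685751 counts. Replicate 2, with 15922617 counts, was among the 2 lowest for 3 members. At the other end of that group, replicate 4 was the highest for 8 members. GCN2KO HDW replicate 5 was the highest of its group for 8 members, and replicate 1 among the 2 lowest for 9. WT HDW replicate 1 was among the 2 lowest of its group for 8 members. Leaving out any 1 of the 20 libraries kept 8 members lower in the interaction, with PSAT1 at -2.38 to -2.16 and MTHFD2 at -1.72 to -1.56. The spread within a group was widest for PSAT1, ALDH1L2 and MTHFD2 in WT unwounded cells, with coefficients of variation of 29.6%, 28.6% and 21.6%, and for PHGDH in GCN2KO HDW cells, at 23.1%.

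Ratios of 2 counts within a library need no scaling between libraries and were formed for 3 pairs of related enzymes. The log2 ratio of MTHFD1L to MTHFD1, mitochondrial over cytosolic, ran from -0.54 to -0.26 in WT unwounded, 0.11 to 0.53 in WT HDW, 0.91 to 1.14 in GCN2KO unwounded and 0.86 to 1.00 in GCN2KO HDW libraries. The WT groups lay apart from each other and below both GCN2KO groups, which overlapped. The ratio was higher in GCN2KO cells by 1.43 (exact permutation p = 0.00794, adjusted p = 0.0159) unwounded and by 0.63 (exact permutation p = 0.00794, adjusted p = 0.0159) after HDW, in two-sided tests of 5 libraries against 5 adjusted over 12 comparisons. HDW raised it in WT cells by 0.66 (exact permutation p = 0.00794, adjusted p = 0.0159), and in GCN2KO cells the difference was -0.14 (exact permutation p = 0.0476, adjusted p = 0.0635). Without GCN2KO unwounded replicate 3 that difference passed, at -0.175 (exact permutation adjusted p = 0.0238).

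The log2 ratio of MTHFD2 to MTHFD2L, both mitochondrial, spanned 3.23 to 4.02 in WT unwounded, 4.76 to 5.36 in WT HDW, 4.34 to 4.60 in GCN2KO unwounded and 4.09 to 4.45 in GCN2KO HDW libraries. WT unwounded libraries were lowest, WT HDW libraries highest, and the GCN2KO groups overlapped between them. It differed between genotypes by 0.83 (exact permutation p = 0.00794, adjusted p = 0.0159) unwounded and by -0.81 (exact permutation p = 0.00794, adjusted p = 0.0159) after HDW, the latter in the opposite direction. HDW changed it by 1.46 (exact permutation p = 0.00794, adjusted p = 0.0159) in WT and -0.18 (exact permutation p = 0.0873, adjusted p = 0.105) in GCN2KO cells. An exact p of 0.00794 is the smallest that 5 libraries against 5 can give. The ratio of SHMT2 to SHMT1 moved less, by 0.30 (exact permutation p = 0.0238, adjusted p = 0.0357) after HDW in WT cells and -0.30 (exact permutation p = 0.0159, adjusted p = 0.0272) for GCN2KO against WT after HDW. Both calls were lost when single libraries were left out, the first without any 1 of 7 libraries (adjusted p = 0.0635 each) and the latter without WT HDW replicate 2, 3, 4 or 5 (adjusted p = 0.0544 each, exact permutation tests).

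**Figure D4:**
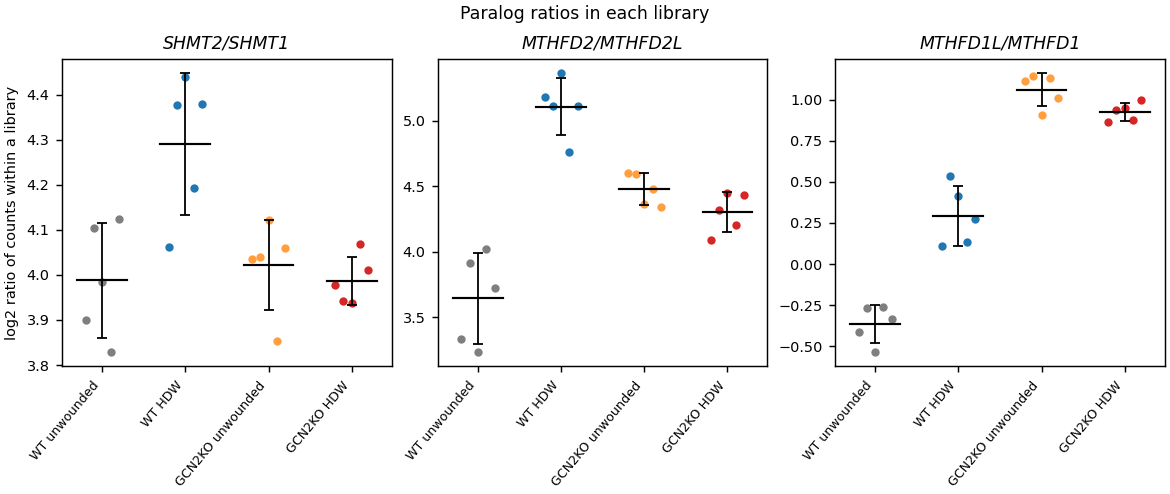
Log2 ratios of counts within a library for 3 pairs of genes, with 1 point per library, a bar at the mean and error bars of 1 SD (n = 5) in each group; axes do not start at 0. For MTHFD1L over MTHFD1 the WT unwounded libraries are all below 0 and the GCN2KO libraries all at least 0.86.

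A further 51 genes of serine transport, glycine cleavage, the folate and methionine cycles, choline breakdown and purine and thymidylate synthesis were listed by role, and 40 of them passed the filter in every comparison. In unwounded GCN2KO cells 10 were higher and 21 lower, against 33.4% and 33.1% of all genes, with a median log2 fold change of -0.24. The 7 genes of thymidylate and purine synthesis held none that was higher, and 4 were lower (TYMS, PFAS, PAICS and ATIC). Of the 7 tested genes of the methionine cycle, 6 were lower and MTRR, which reactivates methionine synthase, was higher. DMGDH, the mitochondrial dimethylglycine dehydrogenase, was highest by fold, at 2.37 (edgeR adjusted p = 1.17e-08, SE 0.183), on 21.9 to 39.0 normalized read counts in WT and 114 to 185 in GCN2KO libraries. SLC1A4, a carrier of serine and alanine, followed at 1.27 (edgeR adjusted p = 1.54e-07, SE 0.123), and ALDH1L1, the cytosolic counterpart of ALDH1L2, at 1.03 (edgeR adjusted p = 2.79e-05, SE 0.158). ALDH1L1 was also low, at 33.8 to 53.5 normalized read counts in WT and 75.4 to 109.1 in GCN2KO libraries. SFXN2, a mitochondrial sideroflexin, was lower at -1.93 (edgeR adjusted p = 2.88e-08, SE 0.160), as were FPGS, which adds glutamate to folates, at -1.27 (edgeR adjusted p = 2.63e-10, SE 0.070) and ALDH7A1, which oxidizes betaine aldehyde, at -1.08 (edgeR adjusted p = 8.22e-09, SE 0.081). SFXN2 had 67.6 to 105.1 normalized read counts in WT and 20.5 to 25.4 in GCN2KO libraries.

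GCN2KO HDW libraries had 12 of these 40 genes higher and 25 lower than WT HDW libraries, against 35.9% and 35.8% of all genes, with a median of -0.39. SFXN2 and FPGS were again the lowest by fold, at -2.37 and -1.46 (edgeR adjusted p = 9.99e-09 and 2.13e-11), and TYMS, the thymidylate synthase, was next at -1.14 (edgeR adjusted p = 1.1e-07). DMGDH, GLDC of the glycine cleavage system and ALDH1L1 were highest, at 1.38, 1.27 and 0.95 (edgeR adjusted p = 2.49e-05, 2.77e-07 and 0.000436). Levels of several of these were low. SFXN2 had 19.2 to 30.1 normalized read counts in GCN2KO HDW libraries. In WT HDW libraries DMGDH had 24.2 to 47.95, GLDC 30.4 to 38.05 and ALDH1L1 29.5 to 44.1. TYMS stood at 464 to 631 normalized read counts in WT HDW and 227 to 279.6 in GCN2KO HDW libraries. The 10 proliferation markers were all lower in GCN2KO cells after HDW, and their part in the lower TYMS was not tested.

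HDW in WT cells raised 19 of the 40 and lowered 9, against 26.1% and 25.2% of all genes. SLC1A4 rose by 0.98 (edgeR adjusted p = 1.36e-05, SE 0.129), from 937 to 1529 to 2029 to 2937.5 normalized read counts, SLC19A1, the reduced folate carrier, by 0.83 (edgeR adjusted p = 7.27e-08, SE 0.066), and PFAS of purine synthesis by 0.73 (edgeR adjusted p = 2.81e-08, SE 0.053). GLDC fell by the largest factor, at -1.10 (edgeR adjusted p = 3.89e-05, SE 0.161), and MAT2A, which makes S-adenosylmethionine, and ALDH7A1 fell too, at -0.69 and -0.65 (edgeR adjusted p = 6.33e-09 and 7.18e-09). In GCN2KO cells 6 rose and 7 fell, against 11.9% and 10.8%. SLC19A1 and PFAS rose there also, at 0.80 and 0.61 (edgeR adjusted p = 0.00132 and 0.00329), and MTR, the methionine synthase, at 0.49 (edgeR adjusted p = 0.00599). DMGDH, MTHFS and ADSL fell, at -0.90, -0.42 and -0.39 (edgeR adjusted p = 0.00291, 0.0391 and 0.0141).

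The interaction passed for 14 of the 40, against 8 of the 10 members, with 4 higher and 10 lower, against 11.2% and 12.5% of all genes. SLC1A4 was the lowest, at -1.04 (edgeR adjusted p = 4.45e-05, SE 0.160), followed by DMGDH at -0.98 and SLC1A5, the glutamine carrier, at -0.51 (edgeR adjusted p = 0.0156 and 0.00333). GLDC, MAT2A and SFXN3 were highest, at 0.99, 0.76 and 0.33 (edgeR adjusted p = 0.00107, 1.02e-07 and 0.0063). SLC19A1 rose after HDW in both genotypes, with an interaction of -0.04 (edgeR adjusted p = 0.886, SE 0.145).

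**Figure D5:**
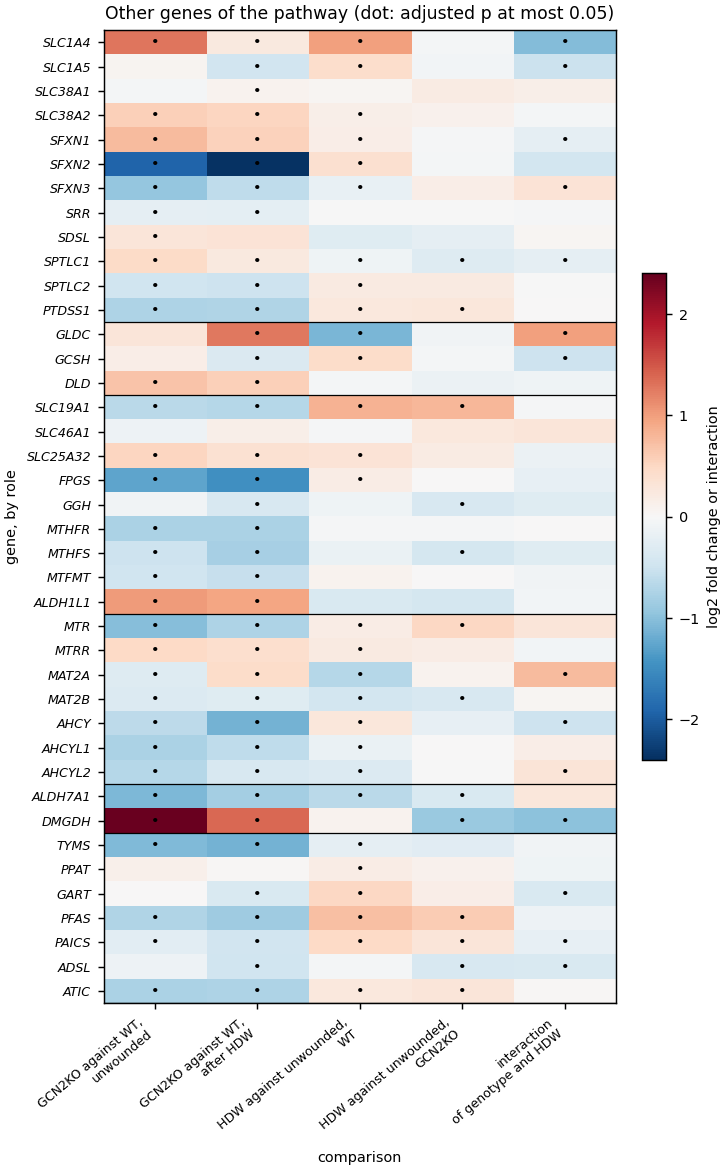
Log2 fold changes and interactions of 40 other genes of the pathway, one row per gene and one column per comparison, in red where higher and blue where lower, with lines between roles and a dot where the adjusted p is at most 0.05. Purine and thymidylate genes at the foot are blue or pale in both comparisons of GCN2KO with WT.

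ATF4 mRNA had 13156, 15644, 13969.7, 15617 and 15229 normalized read counts in WT unwounded and 18126.5, 18771, 18914, 18342 and 18916 in WT HDW libraries. It had 23703, 19719, 22681, 19367 and 22174 in GCN2KO unwounded and 16749, 17848, 17715, 17370.4 and 19723 in GCN2KO HDW libraries. The unwounded GCN2KO libraries reached highest and the unwounded WT libraries were below all others. ATF4 mRNA was higher in unwounded GCN2KO than in WT cells, at 0.55 (edgeR adjusted p = 9.84e-06, SE 0.077). After HDW that difference did not pass, at -0.06 (edgeR adjusted p = 0.261, SE 0.045). ATF4 mRNA rose after HDW in WT cells, at 0.34 (edgeR adjusted p = 1.55e-05, SE 0.045), and fell in GCN2KO cells, at -0.26 (edgeR adjusted p = 0.0246, SE 0.074), with an interaction of -0.61 (edgeR adjusted p = 2.85e-05, SE 0.089). These are mRNA levels, and ATF4 protein was not analysed here. In the study's immunoblots, at times earlier than 6 h, ATF4 protein rose after wounding in both WT and GCN2KO cells.

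The genes whose log2 normalized read counts followed PSAT1 most closely over the 20 libraries, among 12353 genes with a mean of at least 50 counts, were PCK2, MARS1 and ASNS, with Pearson's r of 0.987, 0.984 and 0.978. Those nearest to MTHFD2 were IARS1, XPOT and MOCOS, with r of 0.994, 0.991 and 0.988. PHGDH was nearest to SLC1A5, SMOX and NSMAF, with r of 0.927, 0.912 and 0.892. Within the members, PSAT1 followed ALDH1L2 (0.974) and MTHFD1L (0.962) most closely and MTHFD1 least (0.0372). MTHFD2 followed PHGDH less closely, with r of 0.371, and its r with MTHFD1 was negative, at -0.384. The 20 libraries come from 4 groups, some of which these genes separate, so r describes shared group levels as well as shared deviations.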

How the data were processed

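RNA-seq of 20 cultures was analysed from the authors' gene counts. Per the paper's methods, the authors trimmed reads with Trimmomatic 0.36, aligned them to GRCh38 with STAR 2.5.2b and used featureCounts of Subread 1.5.2 to count the uniquely mapped reads on each gene's exons. The deposited counts are raw and not normalized. Of 57500 listed genes, 56410 were matched to GENCODE release 44 for symbols, lengths and overlaps. The strandedness and annotation release are not given in the sources used here.

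Tests used the quasi-likelihood functions of edgeR 4.0.16 under R 4.3.3, with TMM and filterByExpr (minimum count 10, minimum total count 15) on the 10 libraries of each pair of groups, or all 20 for the interaction, with Benjamini-Hochberg adjustment over all genes tested. The SE is the size of the log2 fold change divided by the square root of F. Ratios of counts used a pseudocount of 0.5 and two-sided exact permutation tests (scipy). TPM used Ensembl canonical transcripts. Precision is set by 14083504 to 34611570 counts per library and by 5 libraries per group. The code was tested on simulated data.

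The members and lists were chosen with earlier results of these data known. Named genes are the members, EIF2AK4, ATF4, up to 3 higher and 3 lower other pathway genes per comparison, genes of counts of 5 or fewer, markers that move with a result, and the 3 genes most like PHGDH, PSAT1 and MTHFD2. Alternatives were DESeq2 1.42.0, its size factors, library size alone, no filter, all 20 libraries in one fit, the replicate number as a block, each library left out and, for ratios, a pseudocount of 5. The exonic length was added after seeing the data. From the list of other pathway genes, 2 were removed before counting and are not reported here, and those that failed the filter on low counts have no test.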

Additional observations from a re-analysis of the deposited data

Results flagged for a closer look

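The response to HDW differed between genotypes, by edgeR's test of the interaction, for 8 of the 10 members, all lower, against 12.5% of all genes lower. The interactions on the log2 scale were -0.93 for PHGDH, -2.26 for PSAT1, -1.12 for PSPH, -0.40 for SHMT1, -0.75 for SHMT2, -0.95 for MTHFD1L, -1.64 for MTHFD2 and -1.30 for ALDH1L2. PSPH, SHMT2 and MTHFD2 passed in opposite directions in WT and GCN2KO cells, rising in the former and falling in the latter. PSAT1, MTHFD1L, ALDH1L2 and PHGDH rose in WT cells and did not pass in GCN2KO cells.

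One library stood apart from the other 4 of its group for a member by Dixon's criterion for 5 samples (0.71). PHGDH in GCN2KO unwounded replicate 1 was at 5498 normalized read counts, with the other 4 libraries at 3969.8 to 4339.5. Without it, the log2 fold change of PHGDH for GCN2KO against WT unwounded was 0.14 (edgeR adjusted p = 0.228) and for HDW in GCN2KO cells -0.18 (edgeR adjusted p = 0.36). It was the 1 case among 40 gene and group combinations screened, and chance alone flags about 1 in 20.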

How the results depend on the processing

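The counts of members higher and lower, which as reported were 8 and 1 for GCN2KO against WT unwounded, 1 and 7 after HDW, 9 and 0 for the WT response to HDW, 1 and 3 for the GCN2KO response and 0 and 8 for the interaction, stayed within 1.5 times of these under DESeq2, its size factors, library size alone, no filter and all 20 libraries. With each library left out, members higher in GCN2KO cells after HDW numbered 1 to 2, the extra gene being SHMT1 without WT HDW replicate 1. Members lower after HDW in WT cells numbered 0 to 1, that gene being MTHFD2L without WT HDW replicate 4. Other counts shifted too. The WT rise of SHMT1 was lost without WT HDW replicate 1 or WT unwounded replicate 2 or 5. PHGDH became higher in unwounded GCN2KO cells without replicate 4 of either unwounded group. In GCN2KO cells the fall of SHMT2 was lost without GCN2KO HDW replicate 1, 2 or 3, and PHGDH fell without GCN2KO HDW replicate 5. Deviations of libraries with the same replicate number correlated by -0.325 to 0.133, which cannot show whether the cultures were prepared in pairs. With the replicate block, 2 members fell after HDW in GCN2KO cells in place of 3, as SHMT2 missed the threshold at -0.22 (edgeR adjusted p = 0.0771), and the other counts of members were the same.

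Of the members' fold changes, the interaction of MTHFD2L turned from -0.052 to 0.015 with library size alone and ranged over -0.10 to 0.019 with each library left out. The change of ALDH1L2 after HDW in GCN2KO cells, 0.034, ranged over -0.026 to 0.079, and the SHMT2 to SHMT1 ratio for GCN2KO against WT unwounded, 0.034, over -0.006 to 0.076. None of these had passed. Among the other pathway genes, 11 in place of 6 were higher after HDW in GCN2KO cells with all 20 libraries in one fit, 7 in place of 4 in the interaction with library size alone, and 4 in place of 7 lower after HDW in GCN2KO cells without GCN2KO HDW replicate 2 or 3. MTHFD2L had 117 to 640 counts per library. The 5 libraries per group limit every test.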

Other observations

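PSAT1 in unwounded GCN2KO cells, at 8422 ± 858 normalized read counts (SD, n = 5), stood between WT unwounded and WT HDW cells, whereas MTHFD2, at 10291 ± 1047, stood above WT HDW cells at 7440.0 ± 530.1 (SD, n = 5), with every library of the former above every library of the latter. That pair of groups was not a comparison of the design and was not tested.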
